A study of Mus musculus with 8 samples.

Results

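The genes named Nduf in mouse encode most of the nuclear subunits of respiratory complex I and a set of its assembly factors, and their mRNA was measured in quadriceps muscle of mice with and without a subcutaneous tumour. Members were all rows of the deposited gene table whose symbol begins with Nduf and whose estimated counts summed to at least 10 over the 8 libraries. Of 53 such rows described here, among 35494 symbols, 49 met the minimum. The row just inside it was Ndufab1-ps, with 27.5 counts in all, and the row just outside was Ndufa11b, with 2.00 counts. Ndufb11b, Ndufs5-ps and Ndufs6b were listed at 0. The filter on low counts left 48 members among 14112 tested genes and removed Ndufab1-ps. The 48 comprised 6 core subunits, 30 accessory subunits, 8 assembly factors, 2 copies or pseudogenes (Ndufb4c and Ndufa12-ps) and 2 genes that keep the name but do not encode complex I subunits (Ndufa4 and Ndufa4l2). The assignment to these classes used general knowledge of the complex, since the files do not give it.

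All mice were wild-type male C57BL/6 animals, 8 weeks old at the start. The scMC38 group (n = 4) received 1.0 M cells of MC38, a mouse colon cancer line, under the skin, and the Control group (n = 4) received the same volume of phosphate-buffered saline by the same route. Quadriceps was taken after 28 days, and each mouse gave 1 library of polyadenylated RNA. The comparison asks how a tumour growing elsewhere in the body relates to gene expression in muscle. A bulk library mixes all cells of the tissue, so fewer cells of a type and less RNA per cell cannot be told apart.

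Complex I, NADH:ubiquinone oxidoreductase, is the largest enzyme of the mitochondrial respiratory chain. It passes electrons from NADH to ubiquinone and pumps protons across the inner membrane. Its core subunits carry the flavin, the iron-sulphur clusters, the ubiquinone site and the proton channels, and those of the membrane arm are encoded in mitochondrial DNA. Accessory subunits surround the core and are needed for its stability. Assembly factors help to build the complex and are not part of the finished enzyme. Oxidative muscle fibres hold more mitochondria than glycolytic fibres and therefore more of this complex.

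Total counts ran from 50.5 to 62.1 M per library, and the 49 Nduf rows together held between 0.497% and 0.781% of them. Skeletal muscle markers were abundant in every library, with summed levels of 77344 to 110442 CPM (TMM-scaled counts per M of a library's counts) in scMC38 and 89159 to 112755 CPM in Control for 8 markers. Several libraries stood apart. Control 1 and Control 2 had 24.3% and 29.7% of their counts on mitochondrially encoded genes, where the other 6 libraries had 14.4% to 18.9%. The libraries scMC38 1 and scMC38 3 held mRNA of neutrophils (427.2 and 3865 CPM over 8 markers) and of marrow progenitors (43.4 and 378.4 CPM over 4 markers). The neutrophil sums were 9.93 and 31.0 CPM in scMC38 2 and 4, still above the 0.692 to 6.92 CPM in Control. The marrow progenitor sums were at most 0.315 CPM in the other 6 libraries. The summed level of 4 bone markers was 45.8 CPM in scMC38 1 and 220.5 CPM in scMC38 3, and at most 1.85 CPM in the other 6. The summed level of 5 epithelial markers, which tumour cells would carry, was at most 1.1 CPM in scMC38 and 1.37 CPM in Control. Results on the Nduf genes are given with and without these libraries.

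Every one of the 48 tested Nduf genes had a lower mean estimate in scMC38 than in Control, but edgeR's quasi-likelihood test called none of them at an adjusted p under 0.05. Over all 14112 tested genes it called 1.2% (0.468% lower and 0.737% higher), with p-values adjusted by Benjamini-Hochberg over all of them. The median log2 fold change of scMC38 minus Control was -0.30 over the 48 members and 0.00 over all tested genes, of which 49.8% lay below 0. At an unadjusted p under 0.05, 14 members were lower and 0 higher, against 9.77% of all tested genes lower and 11.2% higher. DESeq2 called 2 members lower and 0 higher, the accessory subunit gene Ndufc2 (adjusted p = 0.0323) and the assembly factor gene Ndufaf5 (adjusted p = 0.0319). DESeq2 called 3.83% of the genes it tested lower and 6.04% higher. The 4 scMC38 libraries all lay below the 4 Control libraries in 4 members (Ndufc2, Ndufc1, Ndufaf5 and Ndufaf6), and 0 were separated the other way. Of all tested genes, 6.45% were separated downward and 6.82% upward. The smallest adjusted p among the members was 0.0989 and the largest 0.915. The members vary together across the libraries, so their shared direction is not 48 separate observations.

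**Figure D1:**
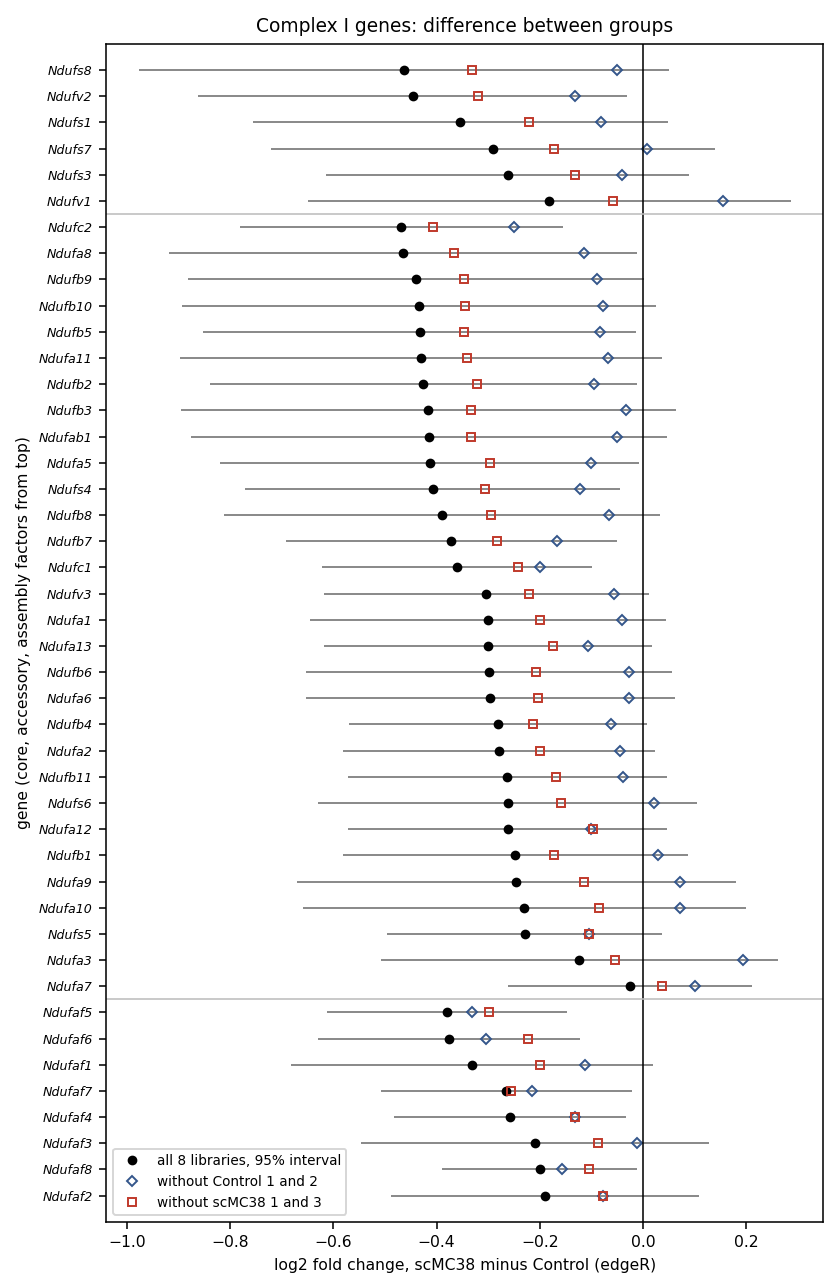
Log2 fold change of scMC38 minus Control (horizontal axis, edgeR) for 6 core, 30 accessory and 8 assembly factor genes (vertical axis, in that order from the top). Filled points are the fit on all 8 libraries with 95% intervals; open red squares leave out scMC38 1 and 3 and open blue diamonds leave out Control 1 and 2. All 44 filled points lie between -0.47 and -0.03, and the diamonds lie nearer to 0 than the filled points for most genes, with 8 of 44 above 0.

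The 6 nuclear core subunits described here had a median log2 fold change of -0.32, with a range of -0.46 to -0.18, and none was called. Ndufv2, an iron-sulphur subunit of the NADH-oxidising module, had 212.7, 223.9, 206.1 and 261.9 CPM in scMC38 1 to 4, against 329.1, 411.4, 263.6 and 227.9 CPM in Control 1 to 4. Its scMC38 libraries lay close together, and only Control 4 fell within their range. The log2 fold change was -0.45 (SE 0.18, adjusted p = 0.212). Ndufv2 was the 1 core gene with an unadjusted p under 0.05, where 9.77% of all tested genes were lower. Ndufs8, which holds iron-sulphur clusters on the path to ubiquinone, had 74.9, 80.6, 73.6 and 93.1 CPM in scMC38 and 115.8, 162.8, 93.8 and 71.7 CPM in Control. Here Control 4 was the lowest of all 8 libraries and Control 2 the highest. The log2 fold change was the most negative among core genes, at -0.46, with a 95% interval of -0.98 to 0.05 (adjusted p = 0.279).

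Ndufs1, the largest subunit of the complex, had 208.5, 201.9, 167.7 and 240.3 CPM in scMC38 and 283.1, 333.5, 232.4 and 197.2 CPM in Control. The groups overlapped through scMC38 4 and Control 4, and the log2 fold change of -0.35 had a 95% interval of -0.76 to 0.05 (adjusted p = 0.289). Ndufv1, which binds NADH and the flavin, had 189.9, 187.5, 184.9 and 246.1 CPM in scMC38 and 238.7, 317.9, 201.9 and 158.4 CPM in Control. Here scMC38 4 stood above the other 3 scMC38 libraries, and Control 4 was again the lowest of all 8. The log2 fold change of Ndufv1 was -0.18 (SE 0.21, 95% interval -0.65 to 0.29, adjusted p = 0.643), and without Control 2 it was 0.02. The other core genes, Ndufs3 and Ndufs7, had log2 fold changes of -0.26 and -0.29 and adjusted p-values of 0.358 and 0.404. Ndufs7 holds the last iron-sulphur cluster before ubiquinone.

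The 30 accessory subunits had a median log2 fold change of -0.30 and a range of -0.47 to -0.03. None was called by edgeR, and 8 were lower and 0 higher at an unadjusted p under 0.05. Of all tested genes, 9.77% were lower and 11.2% higher at this p. Ndufc2, a small membrane subunit at the foot of the proton pump, had the most negative estimate of the class. Its levels were 87.1, 85.6, 88.0 and 99.3 CPM in scMC38, against 128.4, 157.1, 112.9 and 99.6 CPM in Control. The groups did not overlap, although scMC38 4 and Control 4 nearly met. Means were 90.0 ± 6.28 CPM in scMC38 and 124.5 ± 24.7 CPM in Control (SD, n = 4 each). The log2 fold change was -0.47 (SE 0.14, 95% interval -0.78 to -0.15, adjusted p = 0.117).

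Ndufc1, its neighbour in the membrane arm, had 81.2, 91.9, 72.7 and 85.1 CPM in scMC38 and 114.6, 121.7, 95.9 and 92.6 CPM in Control. The groups were separated by a narrow gap between scMC38 2 and Control 4, and the log2 fold change was -0.36 (SE 0.12, adjusted p = 0.134). Ndufb7, a subunit of the distal pump that faces the intermembrane space, had 95.1, 101.1, 92.6 and 105.3 CPM in scMC38 and 124.0, 166.3, 114.5 and 104.9 CPM in Control. Only scMC38 4 reached above the lowest Control library, and the log2 fold change was -0.37 (SE 0.14, adjusted p = 0.184). At the other end of the class stood Ndufa7, an accessory subunit of the peripheral arm. It had 101.1, 99.0, 95.3 and 109.1 CPM in scMC38 and 103.2, 121.4, 98.4 and 88.7 CPM in Control. The log2 fold change of Ndufa7 was -0.03 (95% interval -0.26 to 0.21, adjusted p = 0.915), and it became 0.08 with scaling by total counts alone. That scaling alone shifted the median log2 fold change over all tested genes to 0.11.

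**Figure D2:**
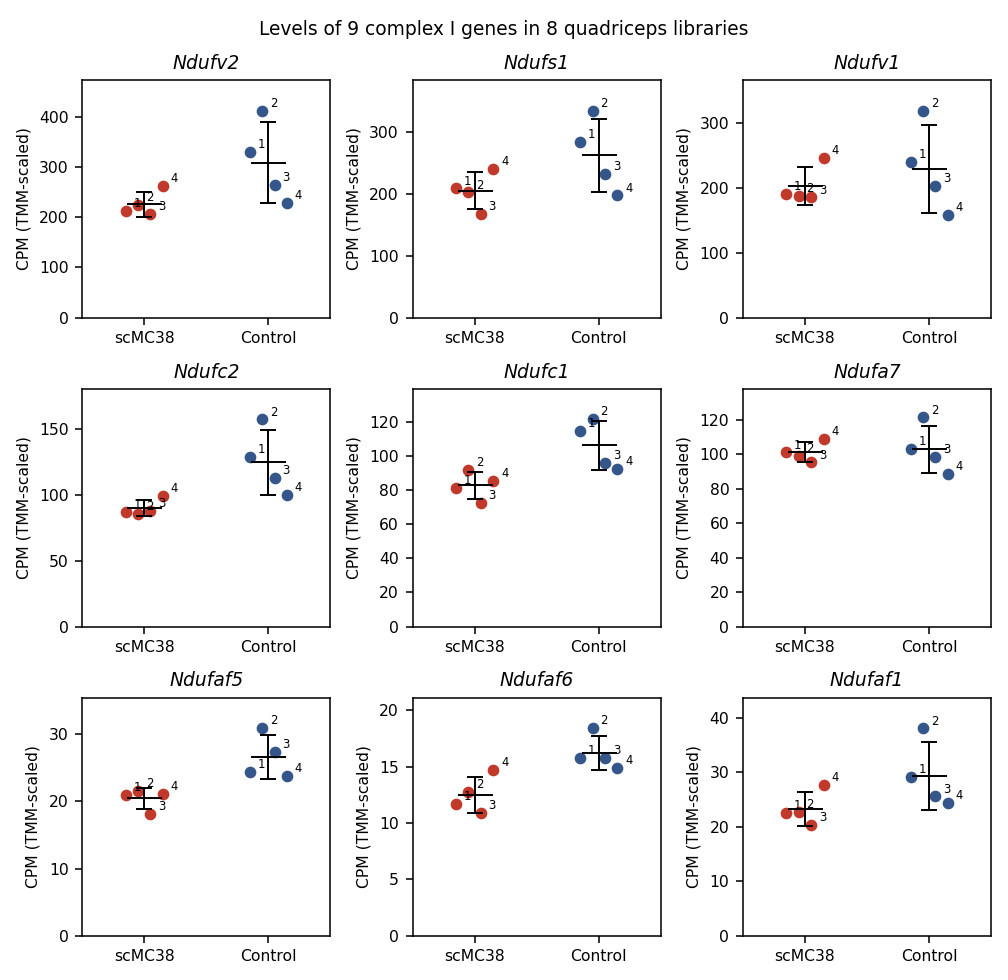
Level in CPM (vertical axis, from 0, TMM-scaled) of 9 genes in the scMC38 and Control libraries, numbered by replicate; bars give the mean ± SD of 4 libraries. From the top, the rows are core subunits, accessory subunits and assembly factors. Ndufc2, Ndufc1, Ndufaf5 and Ndufaf6 have all scMC38 points below all Control points. Ndufv2, Ndufs1, Ndufv1, Ndufa7 and Ndufaf1 do not. Control 2 is the highest point in each panel.

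Grouped by the assembly module they belong to, the nuclear subunits gave medians between -0.39 and -0.29. The 10 subunits of the NADH-oxidising (N) module had a median log2 fold change of -0.29, the 5 of the ubiquinone-reducing (Q) module -0.29, the 9 of the proximal pump -0.30 and the 11 of the distal pump -0.39. Ndufab1, the mitochondrial acyl carrier protein, was kept apart from the modules and had -0.41 (adjusted p = 0.280). No test between modules was made.

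The 8 assembly factors had a median log2 fold change of -0.26 and a range of -0.38 to -0.19. None was called by edgeR, while 5 of 8 were lower at an unadjusted p under 0.05, against 9.77% of all tested genes. The median SE was 0.11 for assembly factors and 0.16 for accessory subunits. Ndufaf5, known in human cells to hydroxylate an arginine of NDUFS7 early in assembly, had the smallest p of all members. Its levels were 20.9, 21.5, 18.2 and 21.1 CPM in scMC38, against 24.3, 31.0, 27.3 and 23.7 CPM in Control. All scMC38 libraries lay below all Control libraries, and Control 3 lay above Control 1 here. Means were 20.4 ± 1.53 CPM in scMC38 and 26.6 ± 3.31 CPM in Control (SD, n = 4 each), with a log2 fold change of -0.38 (SE 0.10, 95% interval -0.61 to -0.15, adjusted p = 0.0989).

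Ndufaf6, which acts early in building the arm that holds the Q module, had 11.7, 12.7, 10.9 and 14.7 CPM in scMC38 and 15.8, 18.5, 15.8 and 14.9 CPM in Control. The groups touched but did not overlap at scMC38 4 and Control 4, and the log2 fold change was -0.38 (SE 0.11, adjusted p = 0.119). Ndufaf4, which binds the Q module with Ndufaf3, had 33.3, 37.6, 31.4 and 37.6 CPM in scMC38 and 45.6, 45.5, 37.6 and 38.4 CPM in Control. Control 1 and 2 were high and Control 3 met the upper scMC38 values, and the estimated log2 difference was -0.26 (SE 0.10, adjusted p = 0.189). Ndufaf1, which joins membrane intermediates together with ECSIT and ACAD9, had 22.6, 22.6, 20.3 and 27.6 CPM in scMC38 and 29.1, 38.0, 25.5 and 24.4 CPM in Control. Its groups overlapped through scMC38 4, and the log2 fold change was -0.33 (SE 0.15, 95% interval -0.68 to 0.02, adjusted p = 0.261).

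Ndufaf2, a relative of the subunit Ndufa12 that acts late in assembly, had the smallest difference of the class. It had 5.55, 6.55, 5.53 and 6.07 CPM in scMC38 and 6.30, 8.32, 6.06 and 6.34 CPM in Control, and only Control 2 stood clear of the rest (log2 fold change -0.19, SE 0.13, adjusted p = 0.433). Ndufaf7, a mitochondrial methyltransferase, and Ndufaf8, a partner of NDUFAF5 in human cells, had log2 fold changes of -0.27 and -0.20 with adjusted p-values of 0.205 and 0.216. Ndufaf3 had -0.21 (adjusted p = 0.442).

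**Figure D3:**
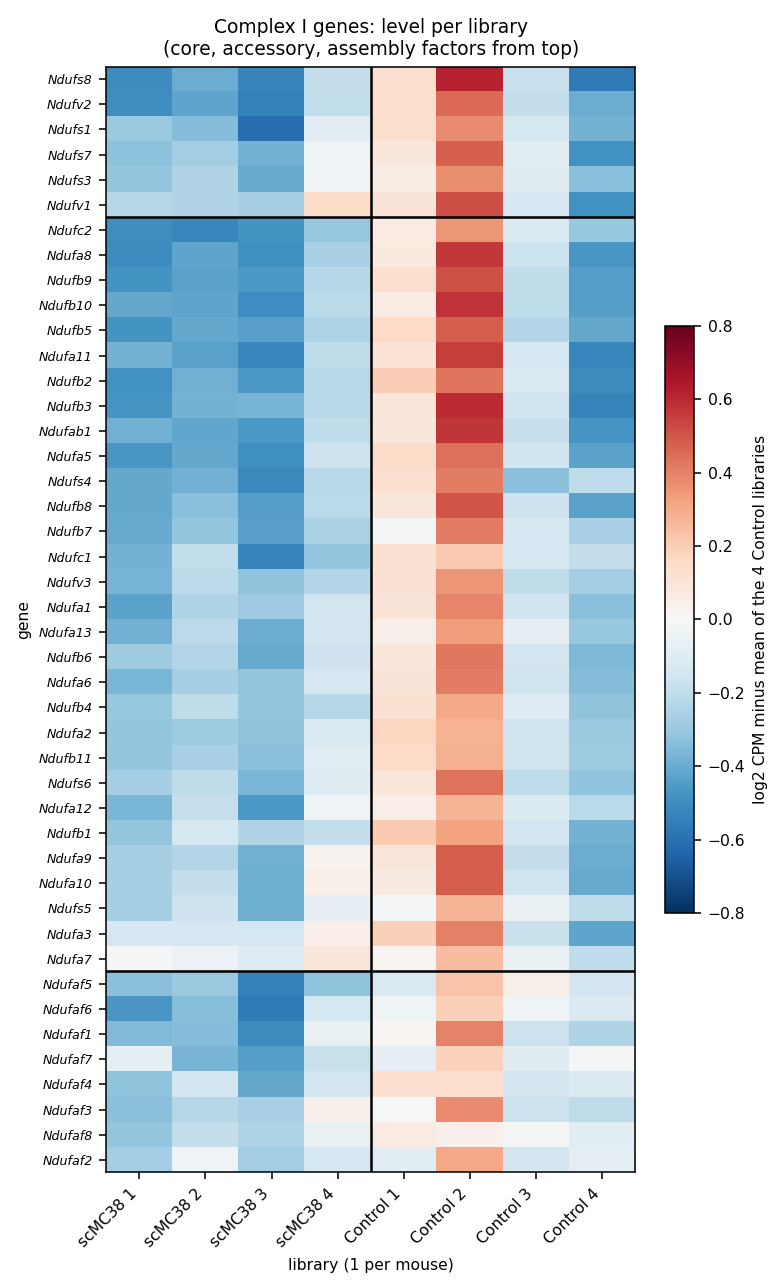
Level of 44 complex I genes (rows; core, accessory and assembly factors from the top) in each library (columns, scMC38 left and Control right) as log2 CPM minus the mean of the 4 Control libraries. Red is above that mean and blue below. The column of Control 2 is red throughout and that of Control 1 is red in most rows. Control 4 is blue in all core and accessory rows and paler in the assembly factor rows.

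The spread within groups was unequal. Over the 44 subunits and assembly factors, the median coefficient of variation was 8.28% in scMC38 and 22.6% in Control, while over all tested genes it was 14.4% in scMC38 and 13.1% in Control. The SD was larger in Control for 41 of the 44, and for 6100 of all 14112 tested genes. By class the median coefficients were 11.2% in scMC38 and 26.8% in Control for core subunits, and 7.86% in scMC38 and 23.6% in Control for accessory subunits. For assembly factors they were 10.3% in scMC38 and 11.5% in Control.

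The Control libraries thus did not form a tight group. Control 2 was the highest of the 8 libraries for 45 of the 48 tested members, and Control 1 for the other 3. Over all 14112 tested genes, Control 2 was highest for 2711 and Control 1 for 901. Control 1 and 2 both lay above all 4 scMC38 libraries in 42 of the 48, where 17.3% of all tested genes did so. They were the 2 highest of the 8 libraries in 40 of the 48, against 10.4% of all tested genes. At the low end, scMC38 3 was lowest for 24 members, Control 4 for 13, scMC38 1 for 9 and scMC38 2 for 2. Over all 14112 tested genes, scMC38 3 was lowest for 2532. The mean log2 level of the 30 accessory genes, relative to the mean of the Control libraries, was -0.36, -0.29, -0.39 and -0.16 in scMC38 1 to 4, and 0.10, 0.41, -0.16 and -0.36 in Control 1 to 4. Control 3 and 4 therefore lay within the scMC38 range for this class. For core subunits the levels were -0.36, -0.32, -0.46 and -0.07 in scMC38 and 0.11, 0.47, -0.14 and -0.44 in Control. Assembly factors spread less among the Control libraries, with -0.31, -0.24, -0.40 and -0.13 in scMC38 and -0.01, 0.23, -0.09 and -0.13 in Control.

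Without Control 1 and 2, the median log2 fold change over the 44 genes was -0.07, with 36 below 0 and 8 above, and 2 had an unadjusted p under 0.05, where 6.05% of all genes tested in that fit were lower at this p. Those 2 were Ndufaf5 at -0.33 (adjusted p = 0.387) and Ndufc2 at -0.25 (adjusted p = 0.456). In that fit the class medians were -0.05 for core, -0.06 for accessory and -0.14 for assembly factor genes. Without scMC38 1 and 3, the libraries with marrow and bone mRNA, the median was -0.21, with 43 below 0. Only Ndufaf5 then had an unadjusted p under 0.05 (adjusted p = 0.256), against 9.27% of all genes lower in that fit. Leaving out Control 4 alone had the opposite effect: the median was -0.41, and 36 of the 44 had an unadjusted p under 0.05, against 11.1% of all genes lower in that fit. The smallest adjusted p was then 0.0852, and edgeR called 0 members. Leaving out Control 2 alone gave a median of -0.18 and 5 such genes, with 8.06% of all genes lower. Of 18 fits in all, the unadjusted p was under 0.05 in 18 for Ndufaf5, in 17 for Ndufc2, and in 16 each for Ndufaf6 and Ndufc1. These 4 genes had the smallest p of the members in the main fit. The fits reuse the same 8 libraries, so they are not separate tests.

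Genes of other functions also set Control 1 and 2 apart, in part. The mitochondrially encoded share of counts averaged 16.7% ± 2.05 in scMC38 and 21.8% ± 6.44 in Control (SD, n = 4 each; two-sided exact permutation test over 70 assignments, p = 0.257, the smallest possible being 0.0286). Chosen after their values were seen, Myh2, the myosin of oxidative fast fibres, and Mb, the oxygen-binding protein of oxidative fibres, varied far more than the Nduf genes. Myh2 had 132.7, 84.8, 544.2 and 561.5 CPM in scMC38, against 1306, 2296, 528.7 and 9.43 CPM in Control. Mb had 649.6, 728.2, 1201 and 1401 CPM in scMC38, against 2144, 4409, 903.9 and 192.5 CPM in Control. Both were highest in Control 2, next in Control 1 and lowest in Control 4, and neither was called (adjusted p = 0.462 for Myh2 and 0.498 for Mb). Myh1, another of the fibre markers, had 2173, 1632, 2144 and 3715 CPM in scMC38, against 3561, 5306, 1905 and 385.9 CPM in Control. It was highest in Control 2 and lowest in Control 4, but scMC38 4 lay above Control 1. Genes of slow oxidative fibres did not share the order of Myh2 and Mb either. Myh7, the slow myosin, had 73.5, 0.0378, 0.940 and 29.3 CPM in scMC38, against 2.19, 185.2, 76.5 and 0.0546 CPM in Control. Tnnt1, a slow troponin, had 23.4, 0.246, 2.76 and 12.8 CPM in scMC38, against 3.45, 106.3, 30.4 and 0.164 CPM in Control. Both were highest in Control 2, as was Tnni1, another slow troponin, but in Control 1 they were far below Control 3 and scMC38 1. Myh4, the myosin of glycolytic fast fibres, had 46231, 36193, 25906 and 43203 CPM in scMC38, against 30777, 16229, 38182 and 43352 CPM in Control, and was lowest in Control 2. Of the 6 slow and fast fibre markers, 0 were called by edgeR. Their summed level, most of it Myh4, ran from 28598 to 48645 CPM in scMC38 and from 24177 to 43748 CPM in Control. All 6 red cell markers were called higher in scMC38, with sums of 1642 to 2864 CPM in scMC38 and 500.9 to 1086 CPM in Control. The part of fibre makeup and of blood, marrow and bone mRNA in the levels of the Nduf genes was not tested.

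**Figure D4:**
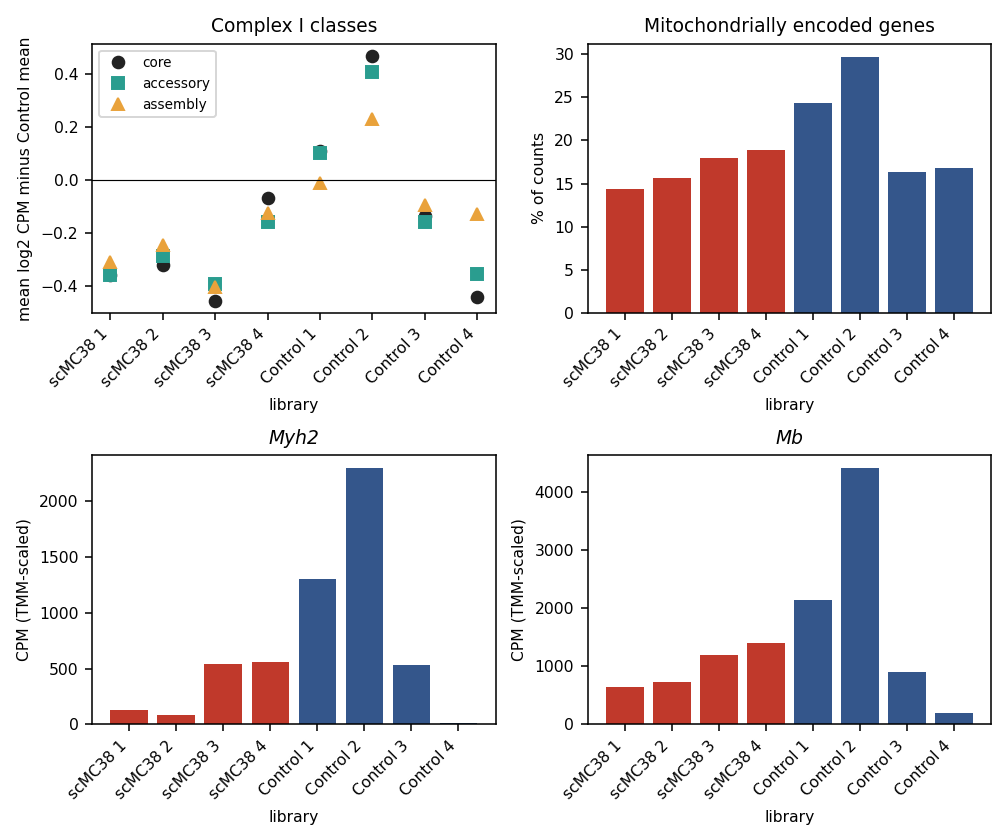
Values per library, scMC38 1 to 4 and then Control 1 to 4 on the horizontal axes. The panels give the mean log2 level of core, accessory and assembly factor genes relative to the Control mean, the percentage of counts on mitochondrially encoded genes, and the CPM of Myh2 and Mb (bars from 0). Control 2 has the highest value in all 4 panels, and Control 4 has 9.43 CPM of Myh2 and 192.5 CPM of Mb, the lowest of the 8 libraries.

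The core subunits encoded in mitochondrial DNA were likewise high in Control 1 and 2, but Control 4 was not at their low end. Their mean log2 level, relative to the mean of the Control libraries, was -0.66, -0.36, -0.61 and -0.19 in scMC38 1 to 4, and 0.20, 0.51, -0.40 and -0.31 in Control 1 to 4. All 7 had log2 fold changes below 0, with a median of -0.53, and none was called by edgeR. The smallest p was that of mt-Nd4l, which had 1710, 1980, 1865 and 2463 CPM in scMC38 and 3299, 3955, 2065 and 2252 CPM in Control (log2 fold change -0.53, SE 0.23, adjusted p = 0.234). Next came mt-Nd1, with 14418 ± 2047 CPM in scMC38 and 20757 ± 6504 CPM in Control (SD, n = 4 each; log2 fold change -0.53, adjusted p = 0.253). In both genes Control 3 and 4 lay inside the scMC38 range, and Control 1 and 2 lay above it. For mt-Nd6, the subunit encoded on the other strand of mitochondrial DNA, the highest library was scMC38 2, unlike for the other 6.

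Of 15 assembly factors that are not named Nduf, 14 were tested. None was called by edgeR, 12 had log2 fold changes below 0 and 2 above, and the median was -0.15. At an unadjusted p under 0.05, 2 were lower, Pyurf and Tmem126a, where 9.77% of all tested genes were lower. Pyurf, whose human counterpart stabilises methyltransferases including NDUFAF5, had 25.7, 28.2, 22.5 and 27.5 CPM in scMC38 and 37.0, 42.3, 32.4 and 32.8 CPM in Control. The groups of Pyurf did not overlap, where 6.45% of all tested genes were separated downward. Its log2 fold change was -0.48 (SE 0.11, 95% interval -0.73 to -0.23). The adjusted p was 0.0783 by edgeR and 0.0079 by DESeq2. DESeq2 called 1 of the 14, against 3.83% of all genes it tested called lower. Tmem126a, which takes part in building the membrane arm, had 38.6, 44.2, 38.3 and 43.7 CPM in scMC38 and 52.1, 56.8, 46.6 and 44.0 CPM in Control (log2 fold change -0.28, SE 0.10, adjusted p = 0.164). The 2 factors above 0 were Tmem186 (0.04) and Nubpl (0.03), with adjusted p-values of 0.786 and 0.885.

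Both genes outside the complex had estimates on the same side. Ndufa4, now counted as a subunit of cytochrome c oxidase, had 322.6, 319.0, 319.3 and 348.4 CPM in scMC38 and 448.6, 513.5, 334.5 and 299.5 CPM in Control (log2 fold change -0.29, SE 0.17, adjusted p = 0.361). The high Control values were again Control 1 and 2, and without these libraries the estimate was 0.04. Ndufa4l2, a relative of Ndufa4 known as a hypoxia-induced gene, had 8.82, 5.03, 12.0 and 7.11 CPM in scMC38 and 9.01, 12.6, 7.70 and 5.63 CPM in Control. Its groups were interleaved (log2 fold change -0.08, SE 0.30, adjusted p = 0.909), and scaling by total counts alone turned the sign, at 0.07.

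Ndufb4 and its copy Ndufb4c cannot be told apart with confidence, because the Ndufb4c transcript of 390 bases is identical over all 390 to part of Ndufb4 in the reference transcripts. The authors' quantification placed between 64.8% and 66.7% of their joint counts on Ndufb4c. The sum of both had 150.4, 160.7, 147.1 and 161.3 CPM in scMC38 and 195.4, 221.7, 168.8 and 148.4 CPM in Control, so Control 4 again lay within the scMC38 range. The means were 154.9 ± 7.22 CPM in scMC38 and 183.6 ± 31.9 CPM in Control (SD, n = 4 each). Ndufa12-ps was listed at 0.051 to 0.511 CPM in scMC38 and 0.240 to 0.686 CPM in Control (adjusted p = 0.602).

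Assembly factor mRNA was far less abundant than subunit mRNA. Per kilobase of transcript, the mean level over the 8 libraries had a median of 143.6 CPM per kb for the 6 core genes (range 90.0 to 265.9), 174.2 for 29 accessory genes (56.9 to 484.3) and 11.9 for the 8 assembly factors (6.97 to 20.2). Lengths came from the shortest principal transcript in GENCODE M21, an annotation of an earlier mouse build than the authors' GRCm39, and 2 members had none there. With the longest principal transcript the accessory median was 160.7 CPM per kb and its lowest gene, Ndufb2, was at 17.0 CPM per kb, inside the range of the assembly factors. The highest subunit genes were Ndufb9 at 484.3 and Ndufb8 at 394.4 CPM per kb. The lowest subunit gene, Ndufs4, ranged from 44.4 to 84.4 CPM per kb over the libraries, and the highest assembly factor gene, Ndufaf5, from 15.6 to 26.6, so with the shortest transcripts these neighbours in the order did not overlap. Within the subunits, ranges over libraries overlapped between most neighbours.

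**Figure D5:**
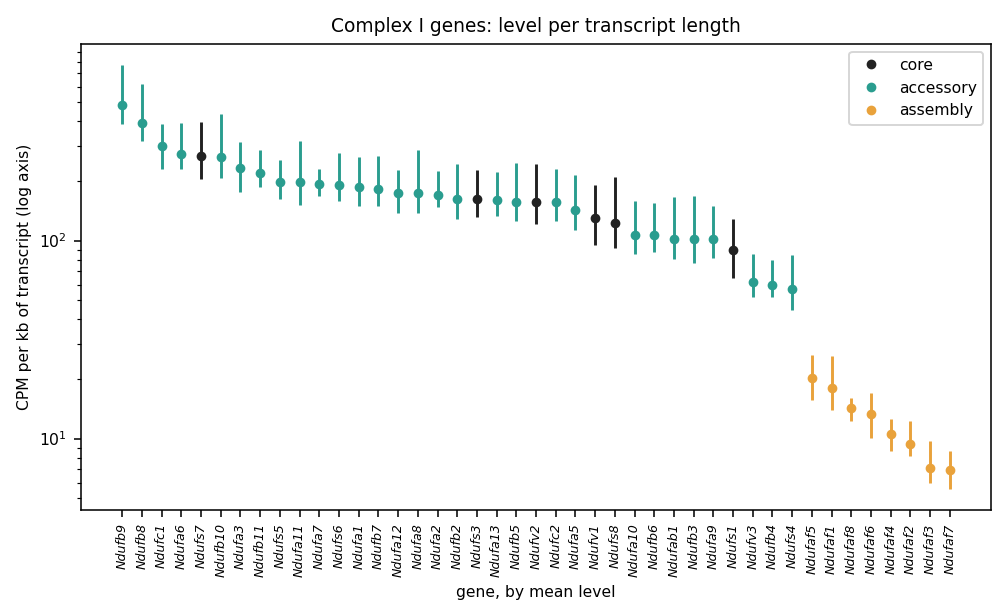
Mean level over 8 libraries in CPM per kilobase of the shortest principal transcript (vertical log axis) for 43 complex I genes in order of level; vertical lines run from the lowest to the highest library. The 8 assembly factors form the low end, from 6.97 to 20.2 CPM per kb, and core and accessory subunits are mixed from 56.9 upward; with the longest transcript Ndufb2 would lie at 17.0.

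Promoters are shown for Ndufv2, Ndufc2 and Ndufaf5, which had the smallest p of each class. Those of Ndufc1, next among accessory genes, and of Ndufaf1 are also shown. RefSeq windows of GRCm38.p6, from 250 bases before to 50 after the gene start, matched 40 of the 44 subunit and assembly factor genes. The build differs from the authors' GRCm39. The stretches below run from 150 bases before the start to 30 after it, 5′ to 3′ on the gene's strand, and capitals mark a match to a motif searched on both strands: GCGCA, any base and GCGC for NRF1, CCGGAAG for GABP (also called NRF2 in this context) or AAGATGGC for YY1. Ndufc2 is at chr7:97399853-97400032 on the plus strand, Ndufc1 at chr3:51408926-51409105 on the minus strand, Ndufv2 at chr17:66101530-66101709 on the minus strand, Ndufaf5 at chr2:140170496-140170675 on the plus strand and Ndufaf1 at chr2:119662805-119662984 on the minus strand.
Ndufc2: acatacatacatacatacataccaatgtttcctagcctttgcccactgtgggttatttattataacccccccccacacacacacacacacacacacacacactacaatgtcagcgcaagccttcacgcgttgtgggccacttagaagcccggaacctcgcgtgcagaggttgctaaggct
Ndufc1: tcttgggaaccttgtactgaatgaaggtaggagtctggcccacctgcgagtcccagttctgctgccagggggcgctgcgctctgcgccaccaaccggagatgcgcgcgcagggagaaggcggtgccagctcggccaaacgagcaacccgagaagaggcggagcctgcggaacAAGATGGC
Ndufv2: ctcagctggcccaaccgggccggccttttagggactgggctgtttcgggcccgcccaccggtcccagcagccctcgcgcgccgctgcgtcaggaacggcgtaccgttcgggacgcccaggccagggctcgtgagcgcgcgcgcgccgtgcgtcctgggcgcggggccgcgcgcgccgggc
Ndufaf5: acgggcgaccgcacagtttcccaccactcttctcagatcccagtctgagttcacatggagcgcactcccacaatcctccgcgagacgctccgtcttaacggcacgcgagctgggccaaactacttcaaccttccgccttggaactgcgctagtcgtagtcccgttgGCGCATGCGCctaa
Ndufaf1: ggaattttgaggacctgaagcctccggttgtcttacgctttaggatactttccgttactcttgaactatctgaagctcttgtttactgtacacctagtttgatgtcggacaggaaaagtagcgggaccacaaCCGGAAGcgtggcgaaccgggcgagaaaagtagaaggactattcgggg

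Among these, Ndufc1 held the YY1 letters at the end of the stretch, Ndufaf5 the NRF1 letters just after the start and Ndufaf1 the GABP letters just before it. Ndufc2 and Ndufv2 held none of them. Over the whole windows, the NRF1 motif was in 9 of 40 genes (22.5%), against 10.6% of tested genes with a window and 5.19% of all 27025 genes with one. The YY1 motif was in 8 of 40 (20%), against 4.95% of tested genes and 3.19% of all. The GABP motif was in 6 of 40 (15%), against 18.7% of tested genes and 9.93% of all. At least 1 of these 3 motifs was in 21 of 40 genes (52.5%), against 30.2% of tested genes. TCAAGGTCA, the letters of the oestrogen-related receptor motif, were in 0 of 40, against 0.283% of tested genes, and TATAAA in 4 of 40 (10%), against 9.40%. NRF1, GABP and YY1 are transcription factors known to act on nuclear genes of the respiratory chain. A match is a description of the letters, with no data here on binding.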

How the data were processed

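Estimated counts per gene, deposited by the authors, were the starting point. The submitters' processing notes list Salmon 1.10.3, R 4.4.3, MultiQC 1.30, fastp 1.0.1, FastQC 0.12.1 and the build GRCm39. Annotation release, strand setting and transcript summing are not given in the sources. Salmon shares ambiguous reads out by a model, so near-identical copies have uncertain levels.

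Rows without a symbol (at most 0.00403% of counts) were left out, 26 duplicated symbols were summed and counts were rounded. The whole table was fitted with edgeR 4.0.16 (R 4.3.3) after filterByExpr (minimum count 10, minimum total 15) and TMM scaling, with no covariate. The robust quasi-likelihood F test compared scMC38 with Control, with Benjamini-Hochberg adjustment over 14112 genes and a threshold of 0.05. The code was tested on simulated data. Standard errors are those implied by the F statistic, intervals are 95%, and log2 CPM carry a prior count of 2. Precision is set by the spread between mice, which differed by gene and by group. The common biological coefficient of variation over all tested genes was 27.3%. All pairs of libraries within a group differed beyond counting noise.

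Members and lists were chosen with earlier results of these data known. One row that the rule selects was fitted with the rest but is not reported here. The genes given in full were the 3 with the smallest p and the highest and lowest fold change of each class, Ndufc2, Ndufs1, Ndufaf1, Ndufa4 and Ndufa4l2, and of the other lists the 2 with the smallest p. Alternatives were DESeq2 1.42.0, other scalings and filters, a replicate block, and fits without libraries.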

Additional observations from a re-analysis of the deposited data

Results flagged for a closer look

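Within each group of 4 libraries, 148 sets of values were examined for a single library far from the other 3, and 7 stood out. Chance gives about 1 in 20 for separate sets. These sets share the same 8 libraries and the genes vary together, so they are not separate. In 4 of the 7, scMC38 4 was high: Ndufa2 had 97.0 CPM (the other scMC38 libraries 84.2 to 86.4), Ndufa3 126.8 CPM (110.4 to 111.0), Ndufa4 348.4 CPM (319.0 to 322.6) and Ndufv1 246.1 CPM (184.9 to 189.9). Ndufaf2 had 8.32 CPM in Control 2, against 6.06 to 6.34 CPM in the other Control libraries. Tmem126b had 18.4 CPM in scMC38 3, against 22.8 to 23.5 CPM in the other scMC38 libraries. Nubpl had 5.64 CPM in Control 1, against 5.04 to 5.13 CPM in the other Control libraries.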

How the results depend on the processing

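No member was called by edgeR under any scaling, filter, block or left-out library tried, and DESeq2 called 2 lower. The class medians stayed below 0 in all 17 alternatives. Leaving out 1 library gave -0.45 to -0.17 for core, -0.41 to -0.18 for accessory and -0.30 to -0.20 for assembly factor genes.

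Over all genes, edgeR called 104 higher and 66 lower. The higher count was 216 with total counts only, 69 with no filter and 921 with DESeq2. It was 25 in the fit lacking scMC38 1 and 3, and 0 in the fit lacking Control 1 and 2. The lower count was 584 with DESeq2, 39 lacking scMC38 1 and 3, and 0 lacking Control 1 and 2. Leaving out 1 library gave 1 to 59 higher and 1 to 52 lower.

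The deviations of same-numbered libraries correlated at -0.11, -0.28, -0.0058 and -0.24, which gave no sign of a pairing. With 4 libraries per group, such correlations cannot show whether the samples were paired. With the replicate block, edgeR called 0 members, 0 genes higher and 1 lower, and 7 members were lower at an unadjusted p under 0.05, with 7.21% of all genes.

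Of the 48 tested members, 11 had an estimate above 0 in at least 1 fit, and the cause was not tested. They were 4 of the 15 genes chosen by the naming rule and 7 others. Of the others, Ndufa10, Ndufa3, Ndufa9, Ndufb1, Ndufs6 and Ndufs7 were at 0.0081 to 0.19 lacking Control 1 and 2, Ndufa3 was also above 0 without Control 2 alone, and Ndufa12-ps was at 0.11 lacking scMC38 1 and 3. For the named genes, leaving out 1 library gave log2 fold changes of -0.32 to 0.015 for Ndufv1 (above 0 without Control 2), -0.091 to 0.062 for Ndufa7 (without scMC38 3 or Control 2) and -0.32 to 0.15 for Ndufa4l2 (without scMC38 2 or Control 2). With total counts only, Ndufa7 was at 0.083 and Ndufa4l2 at 0.068. Lacking scMC38 1 and 3, Ndufa7 was at 0.037. Lacking Control 1 and 2, Ndufv1 was at 0.15, Ndufa7 at 0.10, Ndufa4l2 at 0.30 and Ndufa4 at 0.035.

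The median SE over the 44 subunits and assembly factors was 0.16 and the median estimate -0.30. The median SE was 0.13 without Control 2 and 0.14 without Control 4. No difference between classes was tested.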
